A study of Danio rerio with 2 samples.

Results

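The proteasome genes of zebrafish liver were compared between 1 library from arsenate-exposed fish and 1 library from fish kept in water. The members were the genes of a list of 40 symbols for the core and regulatory particles, plus every other gene whose symbol starts with psma, psmb, psmc, psmd or psme and a digit. Of the 40 symbols, 36 had a transcript in the tables and 12 further genes came in by their prefix, which gave 48 members among 17963 genes. The 12 include psmc3ip and psme3ip1, whose products bind a subunit or an activator and are not parts of the proteasome. The listed symbol psma2 had no transcript under that name, but RefSeq gives it as an older name of psma2a, which is among the 12. No transcript carried the symbols psmd9, psmd11a or psme4b, and these genes are not analysed here. Of the 48 members, 46 had at least 10 tags over both libraries and were compared.

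The proteasome is the large protease of the cytosol and nucleus that degrades proteins tagged with ubiquitin. Its barrel-shaped core stacks outer rings of alpha subunits, which form the gate, on inner rings of beta subunits, some of which cut peptide bonds. A regulatory particle caps the barrel: its base holds a ring of ATPases that unfold substrates, and its lid removes the ubiquitin chain. Arsenate is reduced in cells to arsenite, which binds protein thiols. In mammalian cells the transcription factor NFE2L1 raises proteasome gene transcription when proteasome capacity is short.

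Both groups were wildtype sibling zebrafish aged 3 months. The arsenate group was exposed to sodium arsenate for 96 h and the other group was kept in water, with about 15 adults in each 3 L tank. The dose, the sex and how many fish entered each library are not given in the labels. Short tags from the 3' ends of transcripts were counted by 3' SAGE, so a gene's level is its share of all tags on the RPM scale and does not scale with transcript length; whether every gene's tag is recovered equally well was not tested. The arsenate library held 4420935 tags and the water library 2592679 tags, so that a single tag counts 0.226 RPM with arsenate and 0.386 RPM with water. In what follows "with arsenate" and "with water" name these libraries. With 1 library per group no difference has a replicate check, and no p-value is given. Every interval is a 95% Clopper-Pearson interval that covers counting error only, which is smaller for genes with more tags.

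The libraries also differed outside the proteasome. Over all 7839 genes with at least 10 tags, 14.4% were at least 2-fold lower and 15.6% higher, the background of the marker counts here. Of 7 hepatocyte markers measured, 2 were at least 2-fold lower with arsenate and 0 higher, while 5 had ratios below 1 and 2 above 1. Their summed level was 54659 RPM with arsenate and 135142 RPM with water. Most of that difference came from the defining marker fabp10a, the liver fatty acid binding protein. It stood at 23450 RPM with arsenate and 96575 RPM with water. The abundant markers ahsg1 and apobb.1 had ratios of 0.539 and 0.553. The hepatocyte markers fgg, of fibrinogen, and cp, of ceruloplasmin, had ratios above 1: fgg stood at 13615 RPM with arsenate and 7653 RPM with water, and cp at 1199 RPM with arsenate and 913 RPM with water. All 21 exocrine pancreas markers with at least 10 tags were lower, and the 22 measured summed to 3385 RPM with arsenate and 39843 RPM with water. All 6 such testis markers were lower too, and the 8 measured summed to 2.71 RPM with arsenate and 331 RPM with water; ddx4 and piwil1 were at 0 with arsenate. Of 7 erythrocyte markers with at least 10 tags, 4 were lower and 0 higher, and the 8 measured summed to 385 RPM with arsenate and 512 RPM with water. The most abundant of them, hbba1 and ba1l, had ratios of 0.973 (0.872 to 1.09) and 0.927 (0.801 to 1.07). The ovary list had 1 marker with at least 10 tags, which was within 2-fold, and 3 ovary markers (zp2.1, zp3 and gdf9) had 0 tags in both libraries. The lymphocyte markers cd4-1, cd8a and zap70 were also at 0 in both. The part of these tissues in the proteasome values was not tested, and in whole liver RNA fewer cells of a type and less RNA per cell cannot be told apart.

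Most proteasome genes had a ratio above 1, arsenate over water. The 48 members together took 2644 RPM (11687 tags) with arsenate and 1397 RPM (3622 tags) with water, a ratio of 1.89 (1.82 to 1.96). Of the 46 compared, 15 were higher by 2-fold or more, 2 were lower by 2-fold or more and 29 lay between, where the fold was taken on RPM + 1, a scale that understates the change of low genes. Over all 7839 genes with at least 10 tags, 15.6% were higher and 14.4% lower by the same rule, against 32.6% and 4.35% of the members. The split of all calls depended on scaling: 52.1% of called genes were higher with the library totals, and 63.3% when the totals left out the 10 most abundant genes of both libraries. That scaling raised the median of all genes by 0.20 on the log2 scale, and put 21 members higher and 1 lower, beside 21.4% and 12.4% of all genes under it.

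The members' median log2 ratio of RPM + 1 was 0.72, a ratio of 1.65, and that of all genes was 0.04. A ratio above 1 was found for 40 of the 46 members, against 52% of all genes. The counting interval lay above 1 for 26 members and below 1 for 3, while it lay above 1 for 23.7% and below 1 for 22.3% of all genes. For 9 members the whole interval lay above 2, as it did for 5.78% of all genes. Of the 15 members called higher, psmc3 alone had an interval that included 1. Among the 27 members with at least 100 tags, 10 were higher and 2 lower, beside 15.3% and 12.8% of all genes at that depth.

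**Figure D1:**
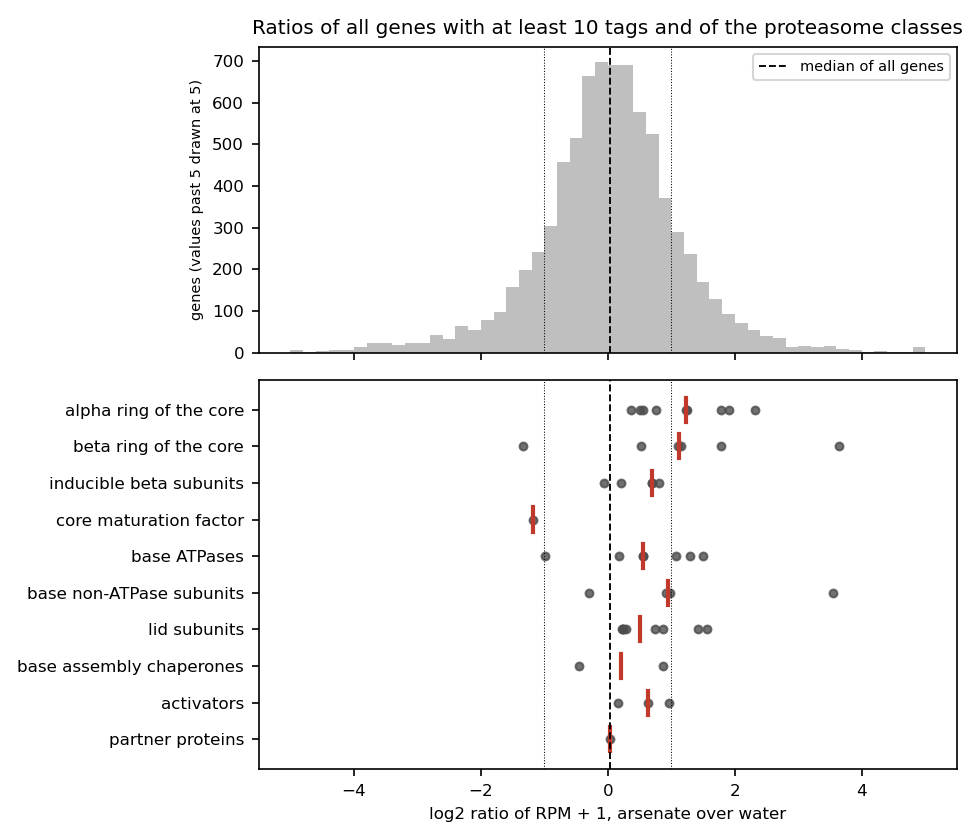
The upper panel is a histogram of the log2 ratio of RPM + 1, arsenate over water, for 7839 genes with at least 10 tags; the lower panel shows the 46 compared proteasome genes by class on the same axis, with the class median as a red bar. The dashed line is the median of all genes at 0.04 and the dotted lines mark 2-fold; the medians of the alpha and beta rings lie at 1.24 and 1.13, beyond the upper dotted line, and the core maturation factor pomp lies at -1.17.

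The alpha ring genes all had ratios above 1, as did 52% of all genes. Their summed level was 603 RPM with arsenate and 232 RPM with water, 2.60-fold higher (2.38 to 2.85). Of 9 genes compared, 5 were at least 2-fold higher and 0 lower, beside 15.6% and 14.4% of all genes. The other 4 were within 2-fold with ratios above 1. The interval included 1 for psma1 alone, at 17 tags with arsenate and 6 with water.

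The most abundant alpha gene was psma8, at 219 RPM (967 tags) with arsenate and 43.2 RPM (112 tags) with water. It was 5.06-fold higher (4.16 to 6.21), and it moved to the highest level of all 48 members in the arsenate library, against rank 15 in the water library. In mammals PSMA8 is a relative of PSMA7 found in testis, whereas RefSeq lists psma7 as an older name of this zebrafish gene. Testis markers were lower in the arsenate library, at 12 tags with arsenate and 857 with water. Their part in the psma8 value was not tested. The next most abundant, psma3, stood at 198 RPM with arsenate and 83.7 RPM with water, 2.37-fold higher (2.04 to 2.76).

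The low alpha genes psma5 and psma6b had wide intervals. The psma5 gene had 38 tags with arsenate and 4 with water, 5.57-fold higher (2.01 to 21.5). For psma6b it was 46 tags with arsenate and 6 with water, 4.50-fold higher (1.92 to 12.9), while its paralog psma6a stood at 39.1 RPM with arsenate and 27.4 RPM with water, a ratio of 1.43 (1.08 to 1.91). The psma6a copy held 79.0% of the pair's tags in the arsenate library (73.0 to 84.2) and 92.2% in the water library (83.8 to 97.1), so the intervals of its share met over a narrow range. The psma2 copies stood closer together, with psma2b at 54.7 RPM with arsenate and 22.4 RPM with water, 2.45-fold higher (1.83 to 3.32), and psma2a at 22.2 RPM with arsenate and 12.7 RPM with water, a ratio of 1.74 (1.16 to 2.67). Tags of such close copies could have been shared or split in the authors' mapping, which leaves the single copies uncertain. The psma4 gene stood at 47.05 RPM with arsenate and 36.3 RPM with water, a ratio of 1.298 (1.01 to 1.67).

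**Figure D2:**
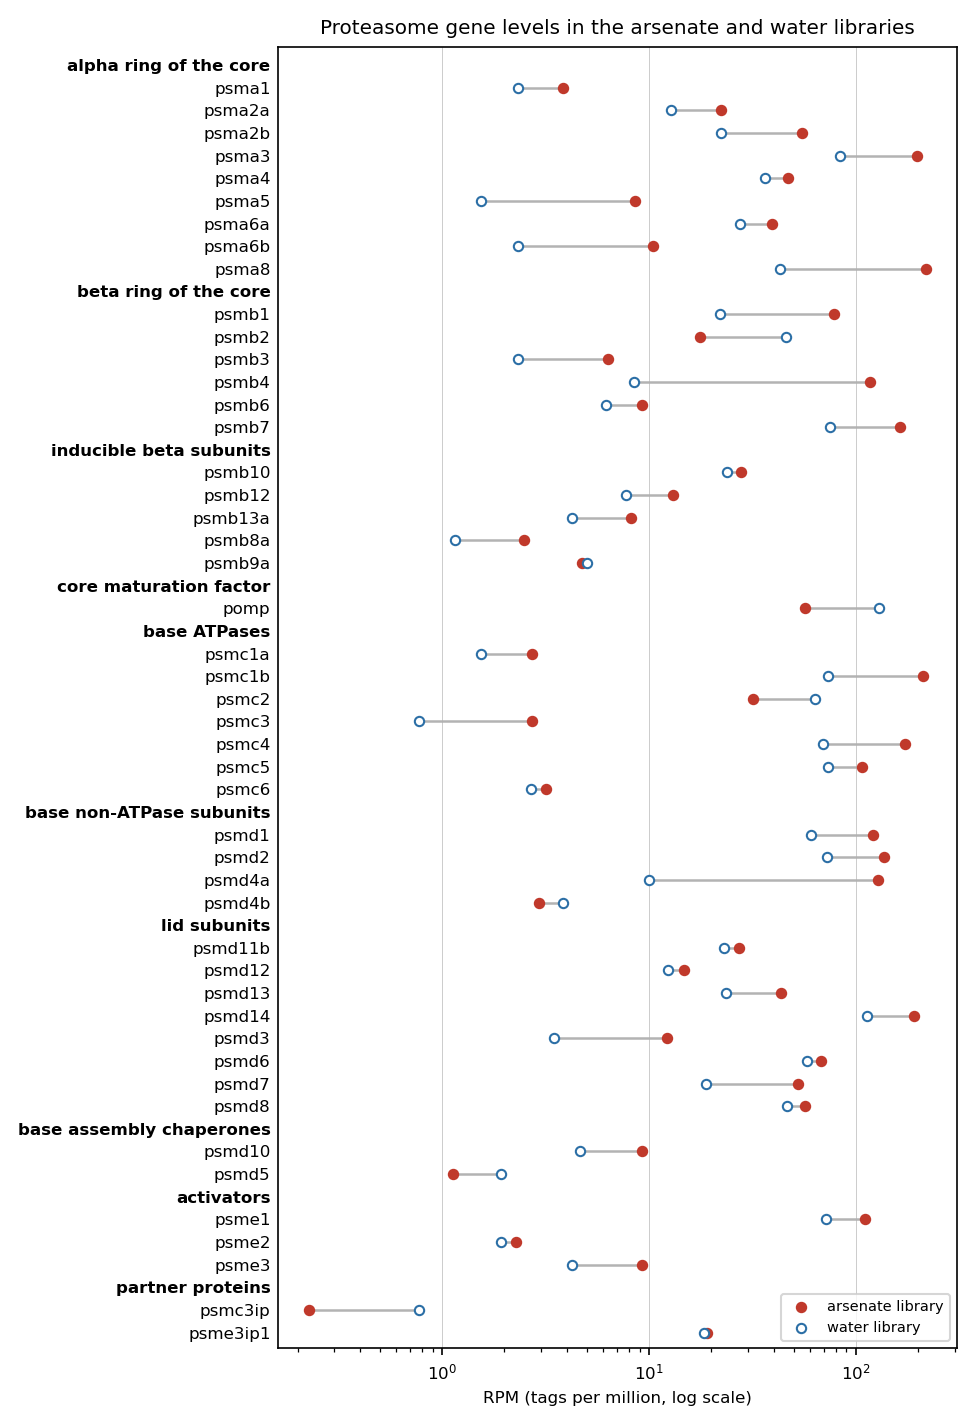
Each row is a proteasome gene with a tag, grouped by class, and the horizontal axis is its level in RPM on a log scale. Filled red points are the arsenate library and open blue points the water library, with 1 library per group. The longest distance between points is that of psmb4 and psmd4a. Among genes with at least 10 tags, pomp, psmb2 and psmc2 have the blue point far to the right. The psmb5 gene, at 0 tags in both libraries, is not drawn.

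The beta ring held both the highest and the lowest ratio of the members compared. The 7 beta genes summed to 391.8 RPM with arsenate and 160.1 RPM with water, 2.45-fold higher (2.198 to 2.73). Of 6 compared, 4 were at least 2-fold higher, psmb2 was at least 2-fold lower and psmb6 was neither. By the same rule 15.6% of all genes were higher and 14.4% lower. The psmb4 gene, a beta subunit without protease activity, had 117 RPM (516 tags) with arsenate and 8.49 RPM (22 tags) with water. It was 13.8-fold higher (8.99 to 22.1), the highest ratio of the 46 members. Another subunit without protease activity, psmb1, stood at 78.3 RPM with arsenate and 21.98 RPM with water, 3.56-fold higher (2.68 to 4.80), and psmb3 had 28 tags with arsenate and 6 with water, 2.74-fold higher (1.11 to 8.08).

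Of the catalytic subunits, psmb7, which carries the trypsin-like site, was at 164 RPM (723 tags) with arsenate and 75.2 RPM (195 tags) with water, 2.17-fold higher (1.85 to 2.56). The psmb6 gene, of the caspase-like site, stood at 9.27 RPM with arsenate and 6.17 RPM with water, and its ratio of 1.503 had an interval that included 1 (0.825 to 2.87). The psmb5 gene, of the chymotrypsin-like site, is listed at 0 in both libraries although every standard core contains this subunit, so no comparison was made. The psmb2 gene, a subunit without protease activity, stood the other way, at 17.6 RPM (78 tags) with arsenate and 45.9 RPM (119 tags) with water, 2.60-fold lower (1.94 to 3.51). With arsenate it stood well below psmb1, psmb4 and psmb7 in level, whereas with water it stood above psmb1 and psmb4.

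The core maturation factor gene pomp, whose product joins beta subunits into the maturing core and is then degraded, was also lower. It stood at 56.5 RPM (250 tags) with arsenate and 128.8 RPM (334 tags) with water, 2.28-fold lower (1.93 to 2.70). It had joint rank 15 among the members in the arsenate library and the highest level of all members in the water library. With library totals that leave out the 10 most abundant genes, pomp was no longer at least 2-fold lower.

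Other genes of core assembly and nuclear import were within 2-fold, with 0 of the 4 measured besides pomp called. Over all genes 15.6% were higher and 14.4% lower. The assembly chaperone gene psmg1 stood at 45.01 RPM with arsenate and 56.7 RPM with water, a ratio of 0.794 (0.638 to 0.989), and psmg2 at 31.9 RPM with arsenate and 30.9 RPM with water, a ratio of 1.03 (0.780 to 1.38). The psmg3 gene and akirin2, which in human cells brings proteasomes into the nucleus, had ratios of 0.870 and 0.704 with intervals that included 1.

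The inducible beta subunits replace the catalytic ones in the immunoproteasome of antigen-presenting and interferon-treated cells. With the library totals all were within 2-fold on RPM + 1, where 15.6% of all genes were higher and 14.4% lower. Their 5 genes summed to 56.3 RPM with arsenate and 42.04 RPM with water, a ratio of 1.34 (1.07 to 1.69). The most abundant, psmb10, stood at 27.8 RPM with arsenate and 23.9 RPM with water, a ratio of 1.16 (0.851 to 1.61), and psmb12 at 13.1 RPM with arsenate and 7.71 RPM with water, a ratio of 1.70 (1.01 to 2.99). The ratios were 1.92 for psmb13a, 2.15 for psmb8a and 0.947 for psmb9a, and these intervals included 1. They came from 36, 11 and 21 tags with arsenate against 11, 3 and 13 tags with water. With totals that left out the 10 most abundant genes, psmb13a was at least 2-fold higher, at a ratio of 2.23. With TMM scaling, and with totals that left out the 10 most abundant genes, the ratio of psmb9a was above 1, at 1.004 with TMM; it was the single member compared whose side of 1 depended on scaling. In the RefSeq gene order psmb13a, psmb8a, psmb12 and psmb9a follow each other with no other protein-coding gene between them, and these neighbours summed to 126 tags with arsenate against 47 with water.

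Markers of immune cells moved beside the inducible subunits in different directions. Of 7 macrophage and antigen presentation markers with at least 10 tags, 4 were at least 2-fold lower and 0 higher in the arsenate library. Over all genes the shares were 14.4% lower and 15.6% higher. The 9 measured summed to 697 RPM with arsenate and 827 RPM with water. The antigen presentation gene cd74b was at 45.2 RPM with arsenate and 273 RPM with water, while the lysosomal protease genes with the most tags of this list had ratios above 1. The lgmn gene stood at 310.1 RPM with arsenate and 184 RPM with water, and ctsba at 317 RPM with arsenate and 289 RPM with water. The macrophage markers mpeg1.1 and csf1ra had 4 and 2 tags with arsenate against 5 and 1 with water. Of 8 neutrophil markers listed, 4 were measured. Of these, 2 were higher and 0 lower, beside 15.6% and 14.4% of all genes. Those called were lyz, at 29 tags with arsenate and 2 with water, and mmp9, at 44 with arsenate and 11 with water. The most abundant, mpx, had 129 tags with arsenate and 133 with water, a ratio of 0.569 (0.443 to 0.730). Neutrophil markers summed to 54.7 RPM with arsenate and 61.3 RPM with water. Their part in the values of the inducible subunits was not tested.

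**Figure D3:**
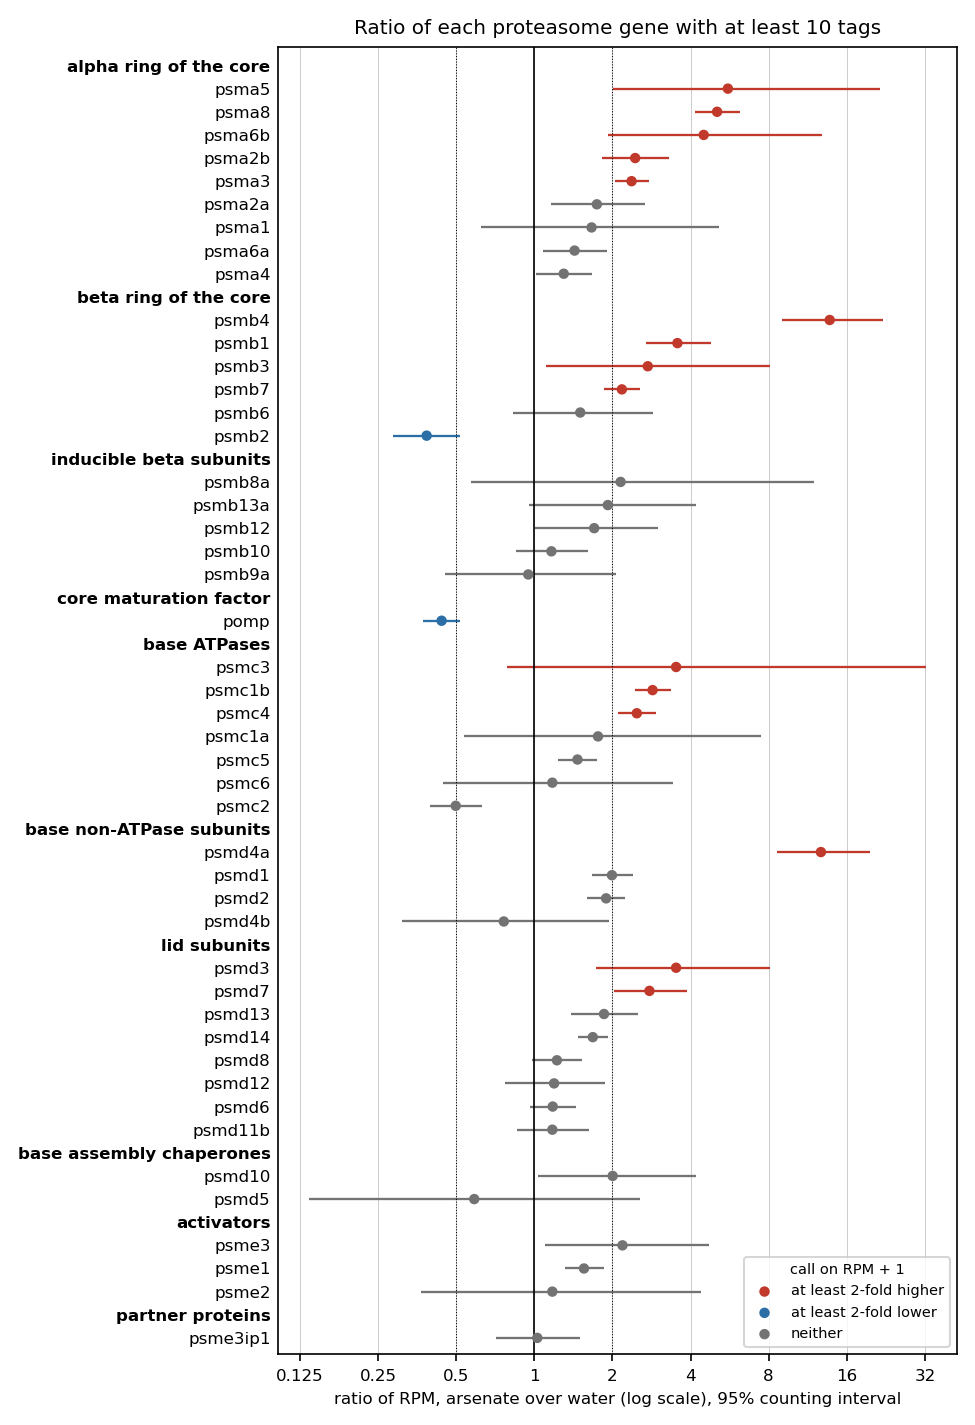
Ratio of RPM, arsenate over water, of each of the 46 proteasome genes with at least 10 tags, by class and on a log scale, with the 95% counting interval. Red marks genes at least 2-fold higher on RPM + 1, blue at least 2-fold lower and grey neither; the solid line is at 1 and the dotted lines at 2-fold, and psmb4 and psmd4a lie apart from the rest at 13.8 and 12.7.

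In the base of the regulatory particle, the ATPase genes were uneven. The 7 genes summed to 530.4 RPM with arsenate and 285 RPM with water, 1.86-fold higher (1.71 to 2.02). At least 2-fold higher were 3 and lower 0, beside 15.6% and 14.4% of all genes, and 4 were neither. The abundant psmc1b stood at 210.4 RPM (930 tags) with arsenate and 73.7 RPM (191 tags) with water, 2.86-fold higher (2.44 to 3.35), and psmc4 at 172 RPM with arsenate and 69.4 RPM with water, 2.48-fold higher (2.11 to 2.94). The psmc3 gene was called higher from 12 tags with arsenate and 2 with water, a ratio of 3.52 with an interval of 0.783 to 32.4. The psmc5 gene stood at 107 RPM with arsenate and 73.3 RPM with water, a ratio of 1.47 (1.24 to 1.74).

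The ATPase gene psmc2 stood apart in its class, at 31.7 RPM (140 tags) with arsenate and 63.6 RPM (165 tags) with water. Its ratio was 0.498 (0.394 to 0.627), just past 2-fold lower on RPM but just short of it on RPM + 1, so it is counted as neither. With TMM and median-of-ratios scaling its ratio was 0.53 and 0.51, short of 2-fold on RPM too. With totals that left out the 10 most abundant genes it was 0.58. The paralog psmc1a held few tags, 12 with arsenate and 4 with water, and made up 1.27% of the tags of the psmc1 pair with arsenate (0.660 to 2.21) and 2.05% with water (0.562 to 5.17). The psmc6 gene had 14 tags with arsenate and 7 with water, a ratio of 1.17 (0.443 to 3.43).

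Among base subunits that are not ATPases, the scaffold genes psmd1 and psmd2 lay just under 2-fold. The psmd2 gene stood at 137 RPM (606 tags) with arsenate and 72.5 RPM (188 tags) with water, a ratio of 1.89 (1.602 to 2.24), and psmd1 at 121 RPM with arsenate and 60.6 RPM with water, a ratio of 1.99 (1.66 to 2.39). With TMM or median-of-ratios scaling psmd1 was at least 2-fold higher. The ubiquitin receptor gene psmd4a had 128 RPM (564 tags) with arsenate and 10.03 RPM (26 tags) with water, 12.7-fold higher (8.59 to 19.65).

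The copies of the ubiquitin receptor differed from each other. The psmd4b gene had 13 tags with arsenate and 10 with water, a ratio of 0.762 (0.309 to 1.94), an interval well below that of psmd4a. The psmd4a copy held 97.7% of the pair's tags in the arsenate library (96.2 to 98.8) and 72.2% in the water library (54.8 to 85.8), and these intervals did not overlap. Together the pair stood at 130.5 RPM with arsenate and 13.9 RPM with water, 9.40-fold higher (6.71 to 13.6). How tags of the copies were assigned was not tested.

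The lid genes had the lowest summed ratio of the classes with 7 or more genes. All 8 had ratios above 1, as did 52% of all genes. At least 2-fold higher were 2 and lower 0, beside 15.6% and 14.4% of all genes, and 6 were neither. The lid genes summed to 465 RPM with arsenate and 299 RPM with water, a ratio of 1.56 (1.43 to 1.69). The psmd14 gene, of the deubiquitinase that releases ubiquitin chains during degradation, stood at 190.5 RPM (842 tags) with arsenate and 113 RPM (294 tags) with water, a ratio of 1.68 (1.47 to 1.92). Its partner psmd7, which has the same fold without activity, stood at 52.5 RPM with arsenate and 18.9 RPM with water, 2.78-fold higher (2.03 to 3.86). The psmd3 gene had 54 tags with arsenate and 9 with water, 3.52-fold higher (1.72 to 8.11), and psmd13 stood at 43.7 RPM with arsenate and 23.5 RPM with water, a ratio of 1.86 (1.39 to 2.52). For psmd6, psmd8, psmd11b and psmd12 the ratios lay between 1.17 and 1.22 and every interval included 1; psmd6 stood at 68.1 RPM with arsenate and 57.9 RPM with water.

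Activators replace the regulatory particle at the end of the core, and none of the 3 measured passed 2-fold on RPM + 1 with the library totals. By that rule 15.6% of all genes were higher and 14.4% lower. The psme1 gene, of the activator found with the immunoproteasome, stood at 111 RPM (490 tags) with arsenate and 71.4 RPM (185 tags) with water, a ratio of 1.55 (1.31 to 1.85). Its partner in that activator, psme2, had 10 tags with arsenate and 5 with water, a ratio of 1.17 (0.365 to 4.37). The nuclear activator gene psme3 had 41 tags with arsenate and 11 with water, a ratio of 2.19 (1.103 to 4.715), which was 1.96 on RPM + 1. It was at least 2-fold higher under each of the other 3 scalings tried. Of the base assembly chaperones, psmd10 had 41 tags with arsenate and 12 with water, a ratio of 2.004 (1.03 to 4.19) that was under 2 on RPM + 1, and psmd5 had 5 tags in each library, a ratio of 0.586 (0.135 to 2.55).

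**Figure D4:**
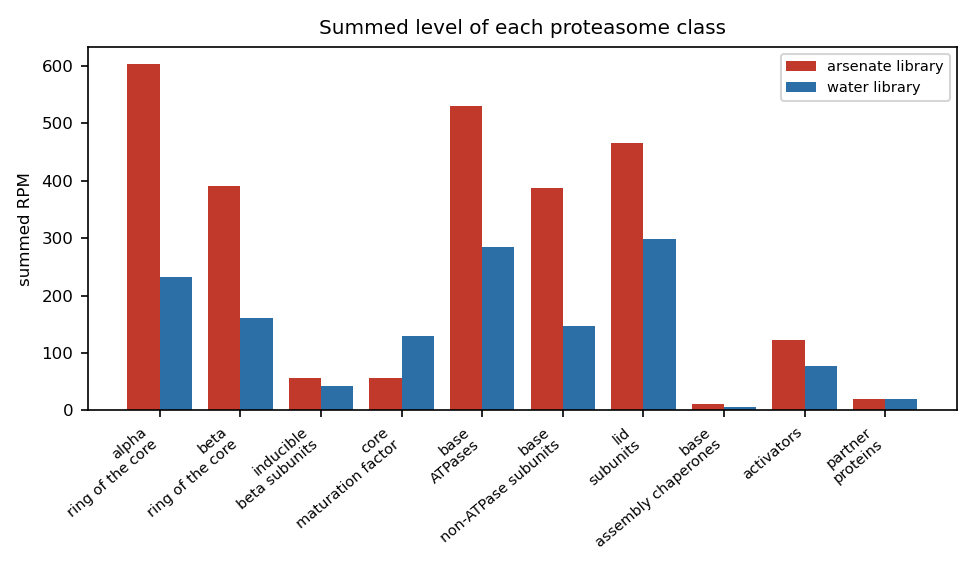
Summed level in RPM of each class of proteasome genes, with the arsenate library in red to the left of the water library in blue; bars are single libraries and have no replicate error. The alpha ring stands at 603 RPM with arsenate and 232 RPM with water and the lid at 465 RPM with arsenate and 299 RPM with water, while the core maturation factor pomp is the class with the clearly lower arsenate bar.

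Set against each other, the core and the regulatory particle were both higher. The alpha and beta rings together stood at 995 RPM with arsenate and 391.9 RPM with water, 2.54-fold higher (2.37 to 2.72). Base and lid together stood at 1384 RPM with arsenate and 731 RPM with water, 1.89-fold higher (1.80 to 1.99). The larger ratio of the core rested in part on single genes: without psmb4 it was 2.29 (2.14 to 2.46), and without psmb4 and psma8 it was 1.94 (1.80 to 2.09), while the regulatory particle without psmd4a was at 1.74 (1.65 to 1.84). These genes were left out after their values were seen. Without psmb4 and psmd4a all members summed to a ratio of 1.74 (1.68 to 1.81). Of these, 13 of 44 were at least 2-fold higher and 2 lower, beside 15.6% and 14.4% of all genes.

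Tag levels within a ring were uneven although its subunits are built in in equal numbers. Whether each gene's tag is recovered equally well was not tested, so these ranges cannot be read as transcript numbers. Alpha ring genes ranged from 3.85 RPM for psma1 to 219 RPM for psma8 in the arsenate library, and from 1.54 RPM for psma5 to 83.7 RPM for psma3 in the water library. The 5 most abundant members held 37.5% of all members' tags with arsenate and 34.0% with water. Of these, psma3, psmc1b and psmd14 were among the 5 in both, psma8 and psmc4 with arsenate and pomp and psmb7 with water.

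Of 10 listed subunits and bound factors of the particle with other names, 7 were measured. Of these, 1 was higher and 0 lower, beside 15.6% and 14.4% of all genes. Their median log2 ratio was 0.21. The ubiquitin receptor gene adrm1 stood at 65.6 RPM with arsenate and 37.4 RPM with water, a ratio of 1.75 (1.39 to 2.23), and the small lid subunit gene sem1 at 80.1 RPM with arsenate and 61.3 RPM with water, a ratio of 1.31 (1.08 to 1.58). The gene past 2-fold was txnl1, of a thioredoxin-like protein bound to the particle, with 67 tags with arsenate and 10 with water, 3.93-fold higher (2.01 to 8.57). The deubiquitinase genes usp14 and uchl5 had ratios of 1.16 (0.931 to 1.46) and 0.911 (0.728 to 1.14). The adaptor gene ecpas, which had the most tags of this list, stood at 92.5 RPM with arsenate and 178 RPM with water, a ratio of 0.520 (0.454 to 0.596), and the ubiquitin ligase gene ube3c at 7.24 RPM with arsenate and 15.4 RPM with water, past 2-fold lower on RPM but not on RPM + 1.

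The ubiquitin and shuttle factor genes had a median log2 ratio of 0.58. Of 23 listed, 15 were measured and 14 had at least 10 tags. At least 2-fold higher were 4 of the 14 and lower 0, beside 15.6% and 14.4% of all genes. The vcp gene, of the ATPase that extracts ubiquitin-tagged proteins from complexes and membranes, stood at 95.2 RPM (421 tags) with arsenate and 27.0 RPM (70 tags) with water, 3.53-fold higher (2.73 to 4.61). The zinc finger gene zfand2a, whose mammalian product was named for its induction by arsenite, stood at 33.02 RPM with arsenate and 13.5 RPM with water, 2.45-fold higher (1.68 to 3.65), and the shuttle factor gene ubqln4 at 75.8 RPM with arsenate and 35.5 RPM with water, 2.14-fold higher (1.69 to 2.72). The vcp cofactor gene ubxn4 had 16 tags with arsenate and 2 with water. The ubiquitin-activating enzyme gene uba1 stood at 154 RPM with arsenate and 105 RPM with water, a ratio of 1.47 (1.27 to 1.69). The fusion gene of ubiquitin and a ribosomal protein, rps27a, held most of this list's tags and stood at 7517 RPM with arsenate and 9579 RPM with water, a ratio of 0.785 (0.772 to 0.798).

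**Figure D5:**
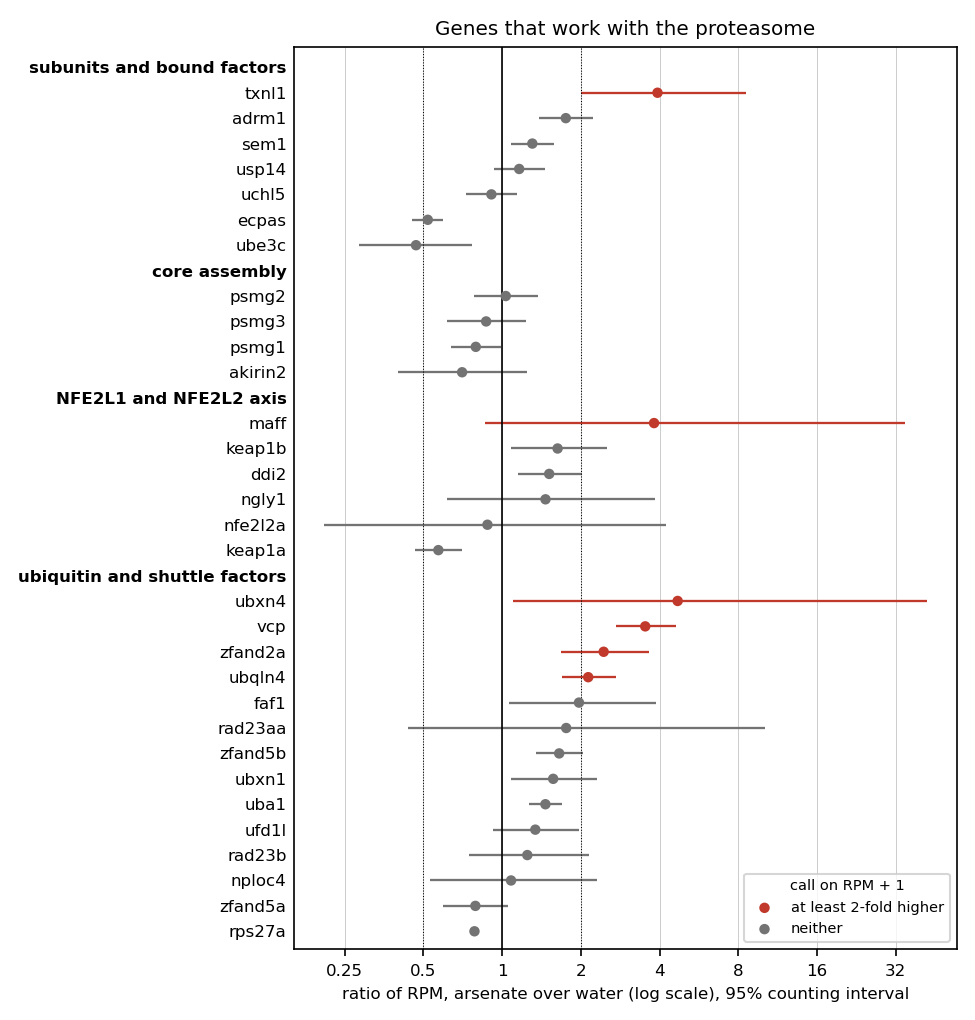
Ratio of RPM, arsenate over water, on a log scale with the 95% counting interval, for genes with at least 10 tags. They code for bound factors, core assembly chaperones, the NFE2L1 and NFE2L2 axis, and ubiquitin and shuttle factors. The nuclear import gene akirin2 is drawn under core assembly, and pomp is left out, being a member. Red marks genes at least 2-fold higher on RPM + 1 and grey neither; vcp is at 3.53 with a short interval, while maff and ubxn4 rest on few tags and have long ones.

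Of 12 genes listed for the NFE2L1 and NFE2L2 axis, 8 had a transcript under their symbol, and the rest were not measured. Among the regulators of proteasome transcription known from mammals, the measured copies nfe2l1a and nfe2l2a were close to the limit of detection. The nfe2l1a gene had 3 tags with arsenate and 0 with water, under the 10 tags required, and nfe2l2a had 6 tags with arsenate and 4 with water. Of 6 genes of this list compared, 1 was higher and 0 lower, beside 15.6% and 14.4% of all genes. Their median log2 ratio was 0.51. The gene called higher was maff, with 13 tags with arsenate and 2 with water, a ratio of 3.81 whose interval of 0.863 to 34.8 included 1. The protease gene ddi2, whose human product cuts NFE2L1 into its active form, stood at 42.1 RPM with arsenate and 27.8 RPM with water, a ratio of 1.51 (1.15 to 2.02). The keap1a gene, of the adaptor that targets NFE2L2 for degradation, stood at 41.8 RPM with arsenate and 73.3 RPM with water, a ratio of 0.571 (0.464 to 0.703), and its copy keap1b at 20.1 RPM with arsenate and 12.3 RPM with water, a ratio of 1.63 (1.08 to 2.53).

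The same counts were made for other multi-subunit machines. Of the 8 genes of the CCT chaperonin ring, which folds actin and tubulin, 0 were at least 2-fold higher and 1 lower, with a median log2 ratio of 0.05. Ratios were above 1 for 5 of the 8 and below 1 for 3, and cct2 was at 2.02 on RPM but under 2 on RPM + 1. They summed to 812 RPM with arsenate and 1060 RPM with water, a ratio of 0.766 (0.729 to 0.806). Most of that sum came from cct7 and cct8, with ratios of 0.758 and 0.396. Of 40 large ribosomal subunit genes 3 were higher and 6 lower, with a median of -0.65. Their sum was 70598 RPM with arsenate and 104370 RPM with water, a ratio of 0.676 (0.673 to 0.680). By the same rule 15.6% of all genes were higher and 14.4% lower, with a median of 0.04. With 1 library per group, whether the proteasome differed from these complexes beyond variation between fish could not be tested.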

How the data were processed

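Libraries were prepared commercially for SOLiD sequencing of 3' SAGE tags, per the labels' protocols. The authors deposited 1 table per library, whose value column is headed TPM and is read here as RPM (tags scaled to a common total): 100% of listed values were whole tags, to within 0.01 of a tag. A blank was read as 0 tags. Mapping tool, filters and genome build: not given in the sources used here, nor is the number of fish per library. Of 17991 transcripts, 10556 carried a RefSeq accession and 9463 matched a symbol in RefSeq's gene table (assembly GRCz12tu), which served for names and gene order. Rows of a symbol were summed; each member had 1 transcript.

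Members, classes and lists were chosen with earlier results of these data known. A gene was called higher or lower where (arsenate RPM + 1)/(water RPM + 1) reached 2 or was 0.5 or less, with at least 10 tags over both libraries. The classes of psma2a, psma2b, psmc3ip and psme3ip1 were set after the data were seen. Full values were given for members past 2-fold, for the 2 with the most tags in each class, for paralog pairs and for classes of 3 or fewer; others named in the text are additions. In the pathway lists, those past 2-fold and the 2 with the most tags were named, with further genes added for their roles. Markers and genes of other complexes were described by counts, mostly with sums or medians, and those named were chosen after their values were seen. Listed genes with no transcript under their symbol were not measured. Of the markers listed, those measured were 7 of 12 for hepatocytes, 22 of 28 for exocrine pancreas and 8 of 20 for testis. They were 8 of 10 for erythrocytes and 9 of 12 for macrophages and antigen presentation. For lymphocytes they were 3 of 9 and for ovary 5 of 9. Ratios have Clopper-Pearson intervals, which treat tags as independent molecules although PCR copies are not.

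On the recovered tags, an exact binomial test between the libraries, with Benjamini-Hochberg adjustment at 0.05 and a 2-fold ratio, called 1055 genes higher and 1050 lower; it compares these libraries, not the conditions. Scaling alternatives used edgeR 4.0.16 and DESeq2 1.42.0 in R 4.3.3; other steps used Python 3.11.15 with scipy 1.17.1, pandas 2.3.3, matplotlib 3.10.9 and numpy 2.4.6. Tag recovery, intervals and calls were tested on simulated libraries that drew tags independently. Such libraries cannot show the effect of PCR copies or of variation between fish.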

Additional observations from a re-analysis of the deposited data

How the results depend on the processing

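The members' median log2 ratio stayed between 0.52 and 0.96 over its 11 alternatives. The ratio of the members' summed RPM was 2.01 with TMM scaling and 2.198 with totals that leave out the 10 most abundant genes of both, against 1.89. Members higher numbered 26 and members lower 3 at 1.5-fold, beside 27.8% and 24.4% of all genes. At 4-fold they numbered 3 and 0, beside 3.87% and 4.48%. Those past 4-fold on RPM + 1 were psma8, psmb4 and psmd4a, while psma5 and psma6b were past it on RPM alone. Without the 10 most abundant genes in the totals 1 member, psmb2, was lower, beside 12.4% of all genes. With the library totals, the exact binomial test called 13 members higher, without psmb3 and psmc3, and 3 lower, with psmc2. Beside these stood 13.5% and 13.4% of all genes. Over all genes, 713 were higher and 565 lower with at least 50 tags, 2176 and 1913 at 1.5-fold, 303 and 351 at 4-fold, and 580 and 610 with a pseudocount of 5. Genes higher were 52.1% of all calls, but 47.7% with at least 1 tag, 46.3% at 4-fold and 48.7% with a pseudocount of 5. Leaving out the partner protein genes, or the genes added by prefix, was chosen after seeing the data. It gave 15 of 45 and 14 of 35 members higher, with 2 lower under both, beside 15.6% and 14.4% of all genes. No paired analysis was possible because each group has 1 library. Depth limits psma1, psmc3, psmc1a, psmc6, psmd4b, psmd5, psmb8a and psme2, which had 10 to 23 tags over both libraries.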

Other observations

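The prefix also brought in psmc3ip and psme3ip1, which code for proteins that bind a subunit or an activator and are not parts of the proteasome. The psme3ip1 gene, of a nuclear partner of the activator psme3, stood at 19.0 RPM (84 tags) with arsenate and 18.5 RPM (48 tags) with water, a ratio of 1.03 (0.7115 to 1.495). The psmc3ip gene, which acts in meiotic recombination, had 1 tag with arsenate and 2 with water, too few to compare.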
